A study of Capra hircus with 9 samples.

Results

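The abundant stable mRNAs of goat early embryos were a set of 213 RefSeq mRNA accessions that stood at 300 FPKM (fragments per kilobase of transcript per 1000000 mapped fragments) or more in each of 3 embryo libraries. In addition, the highest of their 3 values was at most 2 times the lowest. The members were chosen by these values, from the 29872 predicted mRNAs (accessions starting with XM_) among the 30147 mRNAs of the embryo table. They made up 0.713% of the predicted mRNAs. Their abundance and their small spread between the libraries are therefore what the selection fixed, and both are given here as a description. The 3 libraries were goat (Capra hircus) embryos made by in vitro fertilization at the 2-cell stage (IVF-2c) and the 8-cell stage (IVF-8c), and 8-cell embryos made by somatic cell nuclear transfer (SCNT-8c). In nuclear transfer, the nucleus of a body cell, here a goat fetal fibroblast, replaces the chromosomes of the oocyte. The study's methods give a female fetus as the source of the fibroblasts, while the labels of the fibroblast libraries of the series name tissue of the ear margin. Each library was 1 pool of embryos whose cDNA was amplified from low RNA input, so no value below has a replicate and no test between the libraries was possible. Values set side by side without further words are in the order of the stages and methods just named, from IVF-2c over IVF-8c to SCNT-8c. The fibroblast experiment of the series, with and without lncRNA3720, was not used.

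Before the genome of an embryo is active, its proteins are made from mRNAs that the oocyte stored. These maternal mRNAs are degraded in steps, partly by shortening of their poly(A) tails, while embryonic genome activation brings in new transcripts. An mRNA at a similar level on both sides of this transition can be a stored transcript that is kept, or one that is replaced by new transcription, and a level alone does not separate these cases. FPKM is also a share of the RNA sequenced, so that a difference in the amount of RNA per cell or per embryo cannot be read from it.

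Of the 213 accessions, 137 (64.3%) had a gene symbol in the RefSeq table of the assembly ARS1.2, and 76 are given by accession. The named ones belonged to 129 genes. Among all predicted mRNAs 44.3% had a symbol. Among those at 300 FPKM or more in each library but over the limit of 2-fold, 58.6% had one. The embryo label was checked on marker genes. Of the oocyte markers, 7 of 12 were matched, and their summed level was 13600 FPKM in the 2-cell library against 8886 FPKM in the IVF library and 10451 FPKM in the SCNT library at 8 cells. BTG4, itself one of the 213, made up most of it, and none of the other matched oocyte markers was in the set. These others were all highest in IVF-2c and fell further than BTG4, for example ZP2 (682.4, 252.2 and 200.1 FPKM) and ZAR1 (201.9, 27.2 and 30.7 FPKM). The cumulus and granulosa markers (6 of 9 matched) summed to between 59.1 and 85.2 FPKM. Within that sum STAR had 47.2, 11.4 and 12.4 FPKM, while TNFAIP6 had 2.22, 26.6 and 51.2 FPKM. The fibroblast markers (7 of 8 matched) summed to 122.3, 73.6 and 82.4 FPKM, most of it decorin, DCN. Of the others, LUM had 3.56, 9.53 and 15.7 FPKM. COL1A2 and COL3A1 were also highest in SCNT-8c, while PDGFRA and THY1 were highest in IVF-8c. Markers of sperm (3 of 5 matched) stayed at or below 4.19 FPKM in sum and those of blood (2 of 4 matched) at or below 1.12 FPKM. FSHR was listed at 0 in IVF-2c and SCNT-8c, and SMCP was listed at 0 in the 3 libraries.

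The geometric mean of a member over the libraries ran from 320.3 FPKM to 32010 FPKM, with a median of 693.1 FPKM. The median member stood at 698.0 FPKM in 2-cell embryos and 708.1 and 717.0 FPKM in IVF and SCNT 8-cell embryos. At a geometric mean of 1000 FPKM or more there were 62 members, at 5000 FPKM or more 12, and at 10000 FPKM or more 6. The set was thus a few very abundant transcripts and a long tail close to the floor. The 10 most abundant members held between 42.0% and 43.7% of the members' summed FPKM. The 213 members held 24.97% of the FPKM of the mRNA table in IVF-2c and 31.7% and 33.0% in the IVF and SCNT 8-cell libraries. The lower share in IVF-2c moved with 1 row. The unnamed accession XM_013971491.1 held 28.0% of the mRNA FPKM there and was listed at 0 in the 8-cell libraries. Without this row alone the members held 34.7% of the mRNA FPKM in IVF-2c, above the unchanged 31.7% and 33.0% of the 8-cell libraries. In the 8-cell libraries the most abundant row was a different one, TMSB4X. Without the most abundant row of each library the members held 34.7%, 37.6% and 39.3%, with TMSB4X still counted in IVF-2c.

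**Figure D1:**
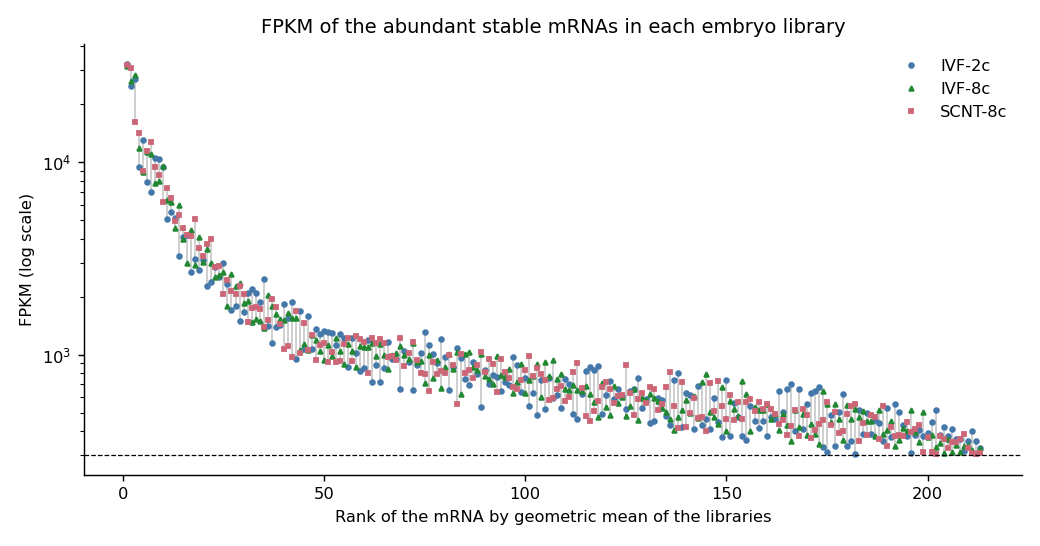
FPKM (y axis, log scale) of the 213 abundant stable mRNAs, ordered on the x axis by their geometric mean over the libraries. Each mRNA has a point for each of the 3 libraries joined by a grey line, and the dashed line is the floor of 300 FPKM. The levels drop steeply over the first 62 mRNAs to a geometric mean of 1000 FPKM and flatten toward the floor.

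The most abundant member was PTTG1, which encodes securin, the inhibitor that holds separase in check until anaphase. Its accession XM_005683251.1 stood at 32483 FPKM in the 2-cell library against 31592 FPKM in the IVF library and 31961 FPKM in the SCNT library at 8 cells, a highest value of only 1.03 times the lowest. It ranked number 3 of all mRNAs in IVF-2c and number 2 in both 8-cell libraries. No embryo library stood apart for this transcript as deposited. The locus LOC102171358 followed at 24951, 26362 and 30988 FPKM. The unnamed XM_013962379.1 stood at 26932 FPKM in IVF-2c and 28260 FPKM in IVF-8c against 16098 FPKM in SCNT-8c. In this accession the nuclear transfer library was the low one, with IVF-8c above it by 0.81 on the log2 scale. XM_005691567.2 stood at 13095 FPKM in IVF-2c and at 8847 and 8961 FPKM in IVF-8c and SCNT-8c. LOC102178151 was instead lowest in 2-cell embryos, with 6951 FPKM against 11074 and 12761 FPKM in IVF and SCNT 8-cell embryos. CALM2, one of the genes for the calcium sensor calmodulin, stood at 7903 FPKM in the 2-cell library against 11250 FPKM in the IVF library and 11469 FPKM in the SCNT library at 8 cells, with the 8-cell libraries close together and above the 2-cell library.

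Regulators of cell division came next. Of all named predicted mRNAs, at any level, 1.03% were members, and the counts for each functional list below stand beside that share. The groups put together after the values were seen were made with the members known. For them that share is no yardstick. Of the 75 cell cycle accessions on the list used here, 9 were members, from 6 genes, and MOS and CCNB2 were abundant but over the fold limit. BTG4, an oocyte gene whose protein brings the CCR4-NOT deadenylase to maternal mRNAs, stood at 10551 FPKM in 2-cell embryos and 7830 and 9371 FPKM in IVF and SCNT 8-cell embryos. It was also the 1 member among the 24 accessions of the oocyte list as deposited. After median-ratio scaling of the libraries, described below, 4 accessions of this list met the rule. MOS, the kinase that keeps the egg arrested in meiosis, stood at 1724 FPKM in IVF-2c and at 396.6 and 689.9 FPKM in IVF-8c and SCNT-8c. The B-type cyclins differed from each other. CCNB1, the activating partner of CDK1, stood at 784.9, 704.5 and 894.0 FPKM. CCNB2 stood at 1173 FPKM in IVF-2c and at 432.6 and 437.0 FPKM in the 8-cell libraries. Hence a member and a non-member were found in one small family.

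PCNA, the sliding clamp of DNA replication, was lowest in IVF-2c, with 2760 FPKM against 4092 FPKM (IVF-8c) and 3573 FPKM (SCNT-8c). AURKA, a kinase of the centrosome and spindle, had 2188 FPKM in the 2-cell library against 1475 FPKM in the IVF library and 1756 FPKM in the SCNT library at 8 cells. CENPW, a protein of the inner kinetochore, had 1122, 995.3 and 647.8 FPKM, and SCNT-8c was the low library. The higher value of AURKA in IVF-2c did not hold under another scaling: after median-ratio scaling of the libraries its highest library was another one. PCNA could only stay lowest in IVF-2c, since this scaling lowers the IVF-2c values and raises the 8-cell values. Of 42 accessions put together as a spindle and kinetochore group after the values were seen, 5 were members. They were SKA1 (2091, 1532 and 1762 FPKM), CETN2, NUSAP1, KNSTRN and DLGAP5. The last was the lowest of them at 383.9, 348.3 and 378.1 FPKM.

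Subunits of the anaphase-promoting complex, the ubiquitin ligase that destroys securin and cyclin B, were among the members as well. Of the 20 accessions of this group, also put together after the values were seen, 3 were members, 2 of ANAPC15 and 1 of CDC26. ANAPC15, a small subunit involved in turnover of the checkpoint complex, had its highest value in SCNT-8c: XM_005689885.2 stood at 3139 FPKM in 2-cell embryos and 2932 and 5034 FPKM in IVF and SCNT 8-cell embryos. CDC26 stood at 501.4, 488.7 and 455.8 FPKM.

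In the list for the proteasome and ubiquitin, 5 of 58 accessions were members and 5 more were at the floor but over the fold limit. CKS1B, a small subunit that binds cyclin-dependent kinases and serves in SCF-mediated ubiquitination, stood at 10410 FPKM in the 2-cell library against 7995 FPKM in the IVF library and 8544 FPKM in the SCNT library at 8 cells. Its paralog CKS2 was outside the set, with 8985 FPKM in the 2-cell library against 26364 FPKM in the IVF library and 25158 FPKM in the SCNT library at 8 cells. The paralogs thus stood at similar levels in the 2-cell library and apart in the 8-cell libraries. UBB, a polyubiquitin gene, stood at 9408 and 9549 FPKM in IVF-2c and IVF-8c and at 6174 FPKM in SCNT-8c. For this gene SCNT-8c was the lowest library, also after median-ratio scaling. PSMA3, a subunit of the proteasome core, had 1194, 1088 and 803.2 FPKM.

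**Figure D2:**
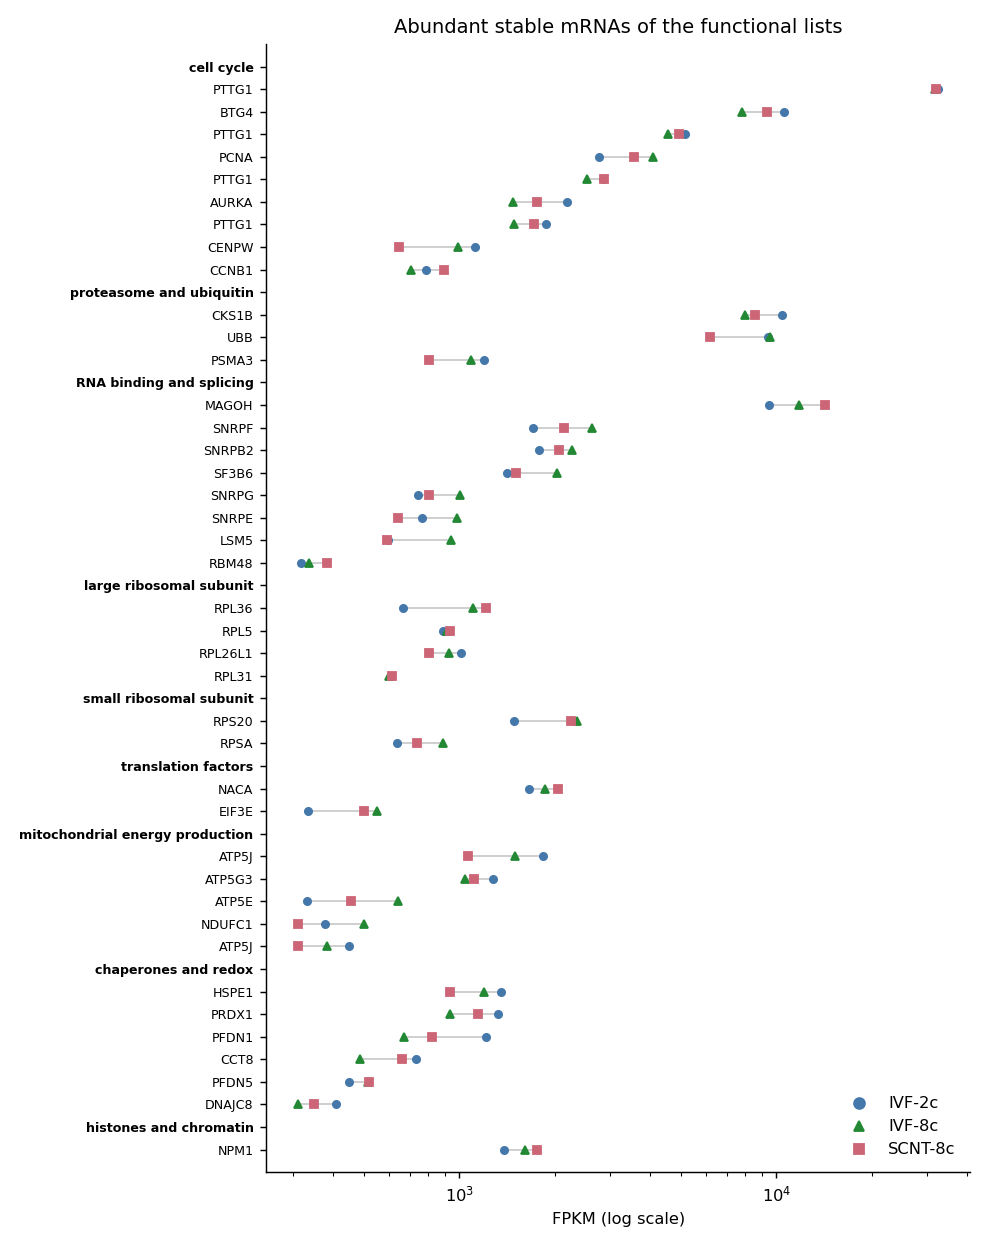
FPKM (x axis, log scale) of 40 of the 42 abundant stable mRNAs that belong to a functional list, grouped by list, with a symbol for each embryo library and a grey line from the lowest to the highest. A gene with several accessions has a line for each. The 3 symbols of the first PTTG1 accession and those of RPL31 nearly coincide, while RPL36 and ATP5E span close to the limit of 2-fold.

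RNA binding and splicing had 8 members of 126 accessions. MAGOH, a core protein of the exon junction complex that is left on spliced mRNA, stood at 9467 FPKM in the 2-cell library against 11800 FPKM in the IVF library and 14208 FPKM in the SCNT library at 8 cells. Next came proteins of the spliceosome. SNRPF, of the Sm ring, had 1710, 2628 and 2146 FPKM. SNRPB2, of the U2 particle, had 1792, 2265 and 2061 FPKM, and SF3B6, also of U2, had 1412, 2038 and 1508 FPKM. In these 3, IVF-2c was the lowest library and IVF-8c the highest. The order of IVF-2c below IVF-8c could not change under median-ratio scaling, which raises the 8-cell values further. SNRPG, SNRPE, LSM5 and RBM48 were the other members. RBM4 was at the floor but over the fold limit, with 309.0, 837.1 and 980.4 FPKM.

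Of the ribosomal proteins of the large subunit, 4 of 40 accessions (10%) were members. RPL31 had the smallest ratio of highest to lowest value of all 213, 1.02, with 608.6, 601.4 and 613.3 FPKM. RPL5 had 886.8, 917.8 and 934.9 FPKM, and RPL26L1 had 1014, 930.3 and 800.8 FPKM. RPL36 was wider, with 666.1 FPKM in IVF-2c against 1109 and 1216 FPKM in the 8-cell libraries. Of the small subunit 2 of 29 accessions (6.90%) were members, RPS20 (1494, 2362 and 2262 FPKM) and RPSA (639.3, 887.9 and 737.6 FPKM). The small subunit list as a whole summed to 7744 FPKM in 2-cell embryos and 31835 and 23177 FPKM in IVF and SCNT 8-cell embryos. RPS28, FAU, RPS27A and RPS29 were abundant but over the fold limit, and in each of them IVF-2c was the lowest library. FAU, which encodes a ubiquitin-like protein fused to a ribosomal protein, stood at 759.1 FPKM in the 2-cell library against 12915 FPKM in the IVF library and 7492 FPKM in the SCNT library at 8 cells. Ribosomal protein genes have many near-identical processed copies, so how fragments were shared among copies is uncertain. Among translation factors, 2 of 47 accessions were members, NACA, of the complex that binds nascent chains (1659, 1862 and 2052 FPKM), and EIF3E, of initiation factor 3 (334.5, 551.3 and 501.9 FPKM).

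For energy production in mitochondria, 5 of 50 accessions were members. ATP5J, a stalk subunit of ATP synthase, stood at 1838 FPKM in 2-cell embryos and 1505 and 1069 FPKM in IVF and SCNT 8-cell embryos for XM_005674729.1. ATP5G3, of the membrane ring of the same enzyme, had 1279, 1044 and 1116 FPKM. ATP5E, of its central stalk, had 330.7, 642.9 and 457.4 FPKM, close to the fold limit. Subunits of one enzyme complex therefore had different orders of the libraries. NDUFC1, of respiratory complex I, had 376.8, 500.4 and 310.8 FPKM. Of 68 accessions of the mitochondrial ribosome, a group put together after the values were seen, 6 were members. MRPL42 XM_005679817.2 was the highest of them with 1039, 990.6 and 871.7 FPKM.

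Chaperones and redox proteins had 6 members of 98 accessions. HSPE1, the co-chaperonin of mitochondria, had 1360, 1197 and 934.0 FPKM. PRDX1, a peroxidase, had 1327, 936.7 and 1148 FPKM. PFDN1, a prefoldin subunit, had 1212 FPKM in IVF-2c against 669.3 and 824.1 FPKM in the 8-cell libraries, and IVF-2c stayed its highest library after median-ratio scaling and after scaling each library to a sum of 1000000 FPKM. CCT8, of the cytosolic chaperonin, had 731.2, 485.8 and 661.1 FPKM. Of histones and chromatin proteins, 1 of 22 accessions was a member: NPM1, nucleophosmin, a histone chaperone of the nucleolus, with 1383, 1616 and 1766 FPKM.

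Several lists had 0 members: glycolysis (9 accessions), the cytoskeleton (41), embryonic genome activation (15), cumulus and granulosa (7), fibroblast (23), sperm (8) and blood (5). GAPDH, a glycolytic gene often used as a reference, stood at 193.8 FPKM in the 2-cell library against 34.8 FPKM in the IVF library and 55.6 FPKM in the SCNT library at 8 cells, so that it was both below the floor and over the fold limit. EIF1AX, a translation initiation factor used as a mark of genome activation, stood at 47.0, 230.5 and 96.9 FPKM. The genome activation list summed to 53.4 FPKM in 2-cell embryos and 1384 and 891.7 FPKM in IVF and SCNT 8-cell embryos. No accession was matched to ACTB. In all, 42 of the 137 named members (30.7%) were in at least 1 of the lists, as were 5.06% of all named predicted mRNAs. The latter include mRNAs at any level, and the median of all predicted mRNAs was 0.35, 0.40 and 0.35 FPKM. Abundant mRNAs over the fold limit were in the lists too, such as CKS2, FAU, RBM4, MOS and CCNB2. Nothing about a stable level is therefore read from these shares.

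Outside the lists were 33 named members of the groups put together after the values were seen and 62 in neither. Of 76 accessions of the transcription machinery, 10 were members. POLR2J, a subunit of RNA polymerase II, had 2986, 2672 and 2056 FPKM. ENY2, shared by a histone-modifying coactivator and the mRNA export complex, had 944.1, 995.2 and 986.9 FPKM, and TBPL1, a relative of the TATA-binding protein, had 794.8, 835.2 and 884.3 FPKM. These last members kept within a narrow range, whereas GTF2H5, the smallest subunit of TFIIH, was at the fold limit. Of 42 accessions of the secretory pathway, 9 were members. DAD1, of the oligosaccharyltransferase, had 1587, 1058 and 1051 FPKM, and RAB11A, of recycling endosomes, had the opposite order with 723.6, 1142 and 1216 FPKM. SSR3, of the translocon-associated complex, had 1165, 836.3 and 969.3 FPKM.

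For 6 genes more than 1 accession was in the set, and these accessions share sequence, so that they are no independent measurements and the split of fragments between them is an estimate. PTTG1 had 4. Beside the first, XM_005683253.2 stood at 5142, 4567 and 4944 FPKM. XM_005683255.1 stood at 2851, 2530 and 2859 FPKM and XM_005683252.2 at 1876, 1487 and 1726 FPKM. In the 4 of them IVF-8c was the lowest library as deposited, and IVF-2c was the lowest after median-ratio scaling. ANAPC15 had 2, and the second, XM_005689882.2, stood at 521.0, 480.8 and 884.1 FPKM with the same order of libraries as the first. The other 3 accessions of ANAPC15 were below the floor. YPEL5, a subunit of an E3 ubiquitin ligase, had XM_013967823.1 at 1069, 1260 and 1258 FPKM and XM_005686851.2 at 698.0, 1034 and 834.9 FPKM. The second MRPL42 accession, XM_005679818.2, stood at 585.0, 581.2 and 558.0 FPKM. The second ATP5J accession, XM_005674730.2, had 448.8, 384.2 and 311.1 FPKM, the same order as the first. FAM103A1, an activating subunit of the mRNA cap methyltransferase, had XM_005695016.2 at 655.3, 1153 and 1168 FPKM and XM_005695015.2 at 402.3, 518.0 and 512.6 FPKM. For all 129 named genes with a member, the FPKM summed over the gene's accessions also met the rule. For 100 of them this was fixed, since they had 1 accession in the table. The other 29 had 2 or more accessions, and their sums could fail only the fold limit, not the floor.

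**Figure D3:**
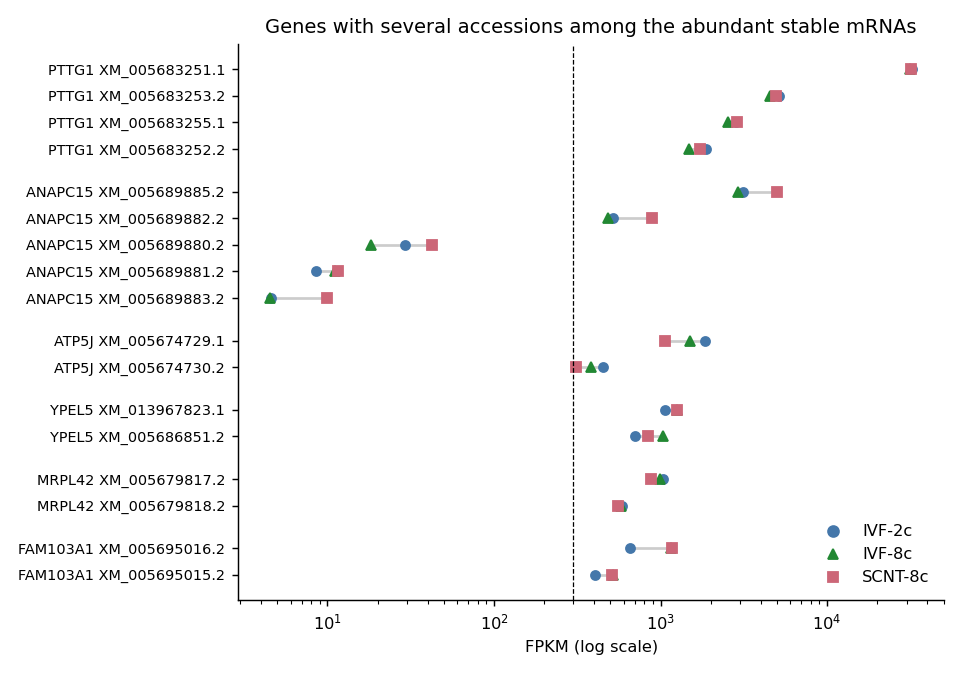
FPKM (x axis, log scale) of each accession of the 6 genes with several accessions among the abundant stable mRNAs, with a symbol for each library, a grey line from the lowest to the highest value and a dashed line at 300 FPKM. The 4 PTTG1 accessions lie above the floor, and of the 5 ANAPC15 accessions 2 do, with SCNT-8c on the right in both.

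The thresholds cut through a continuum. Just above the floor, UTP11 had a lowest value of 303.8 FPKM, MRPS14 of 304.0 FPKM and LOC102184685 of 304.0 FPKM. Just below it, TAF12 had 298.8 FPKM, CCT2 had 298.0 FPKM and XM_013972180.1 had 297.1 FPKM. Just within the fold limit, the highest value was 1.99 times the lowest for XM_005688757.1 and 1.98 times for GTF2H5. Just over it, the ratio was 2.04 for RPL35A and PSMB1 and 2.09 for BCL2L10. Over the 213 members the ratio ran from 1.02 to just within the limit, with a median of 1.41. It was at most 1.1 in 18 members, at most 1.2 in 44 and at most 1.5 in 134. Besides RPL31, PTTG1 and MRPL42, the members with the smallest ratios were XM_013968986.1 (865.7, 840.5 and 881.9 FPKM) and XM_013977230.1 (391.8, 372.0 and 372.4 FPKM).

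Of the 271 predicted mRNAs at the floor in the 3 libraries, 58 were over the fold limit. In 31 of them the mean of the 8-cell libraries was above IVF-2c and in 27 it was below. The most abundant with higher 8-cell values, besides CKS2 and FAU, were XM_005682939.2 (10478, 26863 and 26214 FPKM), XM_005686730.2 (814.7, 22271 and 16776 FPKM) and XM_005679322.2 (3277, 7729 and 6252 FPKM). The most abundant with a higher value in IVF-2c were XM_013971447.1 (16386, 4915 and 5968 FPKM), XM_005692999.2 (13188, 4787 and 7588 FPKM), XM_005701822.2 (16421, 5624 and 4061 FPKM), LOC102168768 (9322, 4301 and 4693 FPKM) and XM_013962567.1 (5612, 2756 and 2096 FPKM). Several of these were more abundant than nearly all members, so that a high level alone did not place an mRNA in the set.

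**Figure D4:**
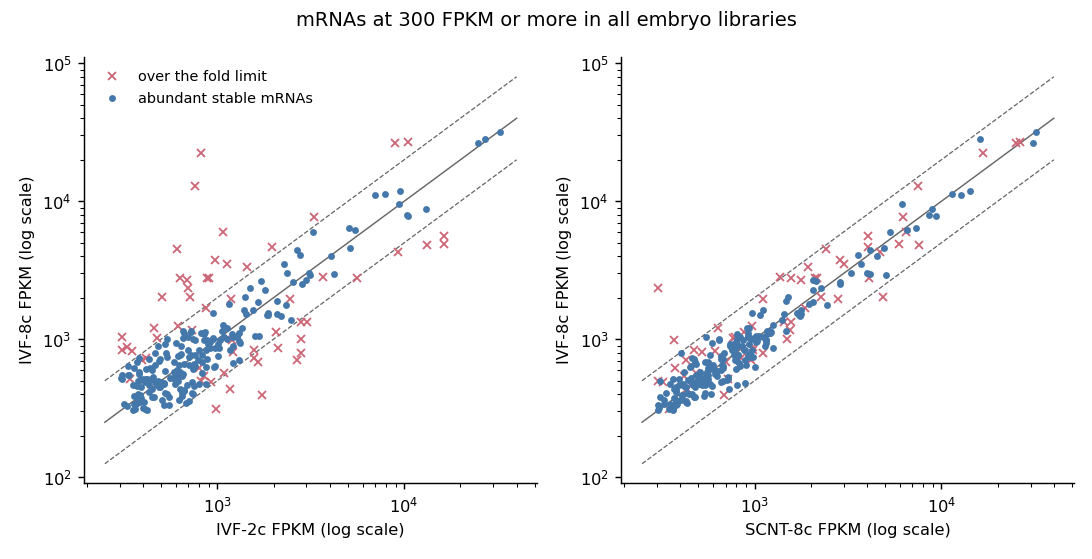
FPKM in IVF-8c (y axis, log scale) against IVF-2c (left) and SCNT-8c (right) for the 271 predicted mRNAs at 300 FPKM or more in the 3 libraries. Blue points are the 213 abundant stable mRNAs, red crosses the 58 over the fold limit, the solid line marks equal values and the dashed lines a 2-fold difference. The crosses scatter farther from the line against IVF-2c than against SCNT-8c.

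Within the limit of 2-fold the libraries still differed in order. IVF-2c held the highest value of 90 members (42.3%), IVF-8c of 47 (22.1%) and SCNT-8c of 76 (35.7%). Among all predicted mRNAs at 1 FPKM or more in a library, these shares were 55.3%, 25.3% and 19.5%. IVF-2c also held the lowest value of 90 members (42.3%), against 30.2% of all predicted mRNAs. Of the 58 abundant mRNAs over the fold limit, IVF-2c held the lowest value in 30 and the highest in 27, so this was not particular to the members. The 8-cell libraries were closer to each other: the median absolute log2 ratio of the members was 0.18 between IVF-8c and SCNT-8c, 0.30 between IVF-8c and IVF-2c and 0.35 between SCNT-8c and IVF-2c. Log2 ratios were taken on FPKM + 0.1. IVF-8c and SCNT-8c were within 1.2-fold in 139 of the 213 members, IVF-8c and IVF-2c in 92, and SCNT-8c and IVF-2c in 81. The 8-cell pair was also the closest among all predicted mRNAs. Their median absolute log2 ratios, in the same order of pairs, were 0.24, 0.58 and 0.59 at a geometric mean of 300 to 1000 FPKM. At 1 to 3 FPKM they were 0.48, 0.98 and 0.83. The closeness of the 8-cell libraries was thus not particular to the members.

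Differences of more than 1.5-fold were counted between each pair of libraries, and the background was all predicted mRNAs at 1 FPKM or more in the higher of the pair. Since the selection used the same values, nothing about the members is read from these counts. Against IVF-2c, 29 members were higher in IVF-8c (background 23.7%) and 21 were lower (background 43.8%). In SCNT-8c, 33 members were higher than in IVF-2c (background 21.1%) and 26 were lower (background 41.4%). Between the 8-cell libraries, IVF-8c was the higher one for 11 members (background 18.5%) and the lower one for 5 (background 16.0%). Among the former were UBB, CENPW, LSM5 and SNRPE, and among the latter both ANAPC15 accessions.

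Whether a member counts as equal between the stages depends on how the libraries are put on 1 scale. As deposited, the members had a median log2 ratio to IVF-2c of -0.02 in IVF-8c and 0.02 in SCNT-8c, where all predicted mRNAs at 1 FPKM or more had medians of -0.42 and -0.36. The rule bounds the members' deposited ratios on both sides of 0, so that a median near 0 is part of what it fixed. Median-ratio scaling, which sets the typical mRNA equal between the libraries, gave the members medians of 0.37 and 0.36 and all predicted mRNAs medians of -0.04 and -0.03. The 271 predicted mRNAs at the floor, chosen without the fold limit, had deposited medians of -0.01 and 0.03. Scaling moves members and other mRNAs alike, and nothing is read from the distance between them. For IVF-8c over SCNT-8c the members' median was -0.03 as deposited and 0.01 after median-ratio scaling. With the rule applied after median-ratio scaling, 187 mRNAs met it, of which 168 were among the 213. The 19 gained included BCL2L10 of the oocyte list. Of the 45 members lost, 39 were over the fold limit and 12 under the floor. Among those lost were SNRPF, RPS20, RPL36, EIF3E, LOC102178151 and both ANAPC15 accessions. Under both median-ratio scaling and scaling to a sum of 1000000 FPKM, 144 of the 213 members (67.6%) still met the rule, PTTG1, BTG4, CKS1B, MAGOH, CALM2, UBB, CCNB1, AURKA and PCNA among them. The library with the highest value also moved. Of the 90 members highest in IVF-2c as deposited, 27 were highest there after median-ratio scaling, among them ESD, DAD1, PFDN1, DUT and KNSTRN.

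A narrow spread was more common among abundant mRNAs in general. Of the predicted mRNAs with a geometric mean of 1 to 3 FPKM, 35.5% had a highest value of at most 2 times the lowest. The share was 46.5% from 3 to 10 FPKM, 53.9% from 10 to 30 FPKM, 63.1% from 30 to 100 FPKM and 66.2% from 100 to 300 FPKM. It was 67.9% from 300 to 1000 FPKM and 64.6% at 1000 FPKM or more, so that the share was about level from 30 FPKM upward. The number of fragments behind a value also differs between these bands, and its part in the shares was not tested. Among the 271 mRNAs at the floor in every library the share was 78.6%, but there the floor on the lowest value itself removes mRNAs with a wide spread. The median log2 ratio of IVF-8c to the 2-cell library moved with the level as well, from -0.51 in the band of 1 to 3 FPKM to 0.06 from 300 to 1000 FPKM and 0.08 at 1000 FPKM or more.

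**Figure D5:**
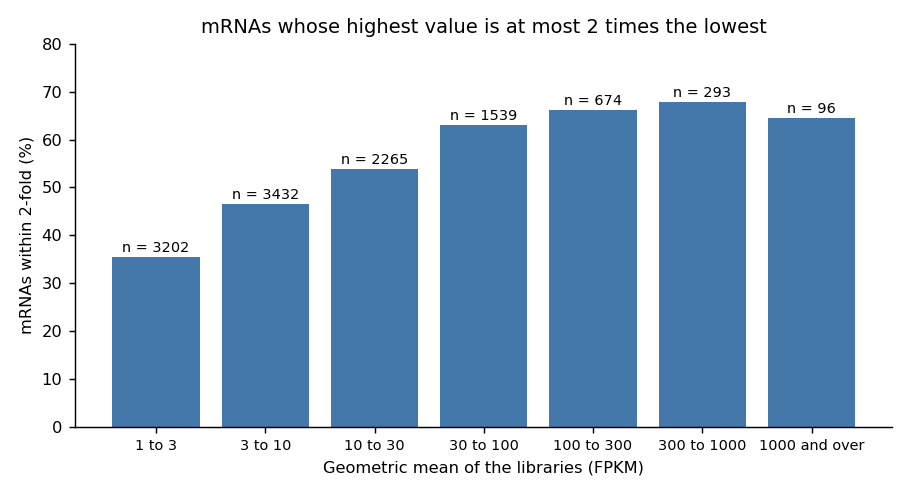
Share of predicted mRNAs (y axis, percent) whose highest value over the 3 libraries is at most 2 times the lowest, in bands of their geometric mean in FPKM (x axis), with the number of mRNAs above each bar. The share is 35.5% in the lowest band and between 63.1% and 67.9% in the 4 bands from 30 FPKM upward.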

How the data were processed

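The embryo RNA-seq values were FPKM for each mRNA accession and library, as the authors deposited them. The submitters' processing notes name TopHat2 2.0.12, Bowtie2 2.2.3, Cufflinks 2.1.1 and Cuffdiff. The genome build is not given in the sources used here. The libraries were made from SMART-Seq amplified cDNA. Low values were no whole multiples of 1 fragment, which leaves the depth unknown, and intervals for counting error could not be made.

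The rule was applied to the deposited values in pandas 2.3.3 (numpy 2.4.6, Python 3.11.15), and figures were drawn with matplotlib 3.10.9. Log2 ratios were taken on FPKM + 0.1. Median-ratio scaling used the 18082 predicted mRNAs above 0 in each library. With 1 library per condition, no p-value was calculated. Symbols were matched by accession without its version, since 4 members matched with it. On a simulated table of 29872 rows the rule found 200 of 200 planted mRNAs and 0 others. The planted rows were built to meet the rule and all others to miss it. This checked the code only and says nothing on the accuracy of the embryo values.

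The members and lists were chosen with earlier results of these data known. The mRNAs named are the 10 most abundant members, the 5 with the smallest ratio, the 3 on each side of both thresholds, up to 4 per functional list, all of the cell cycle, oocyte and histone lists, genes with several accessions, GAPDH, ACTB and EIF1AX, and the 5 most abundant over the fold limit in each direction. Others were chosen after their values were seen. The table of the fibroblast experiment was not used. A few mRNAs that the naming rule selects are not reported here.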

Additional observations from a re-analysis of the deposited data

How the results depend on the processing

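The number of abundant stable mRNAs followed its thresholds. It was 602 with a floor of 100 FPKM, 121 with a floor of 500 FPKM, 134 with a fold limit of 1.5 and 374 with the rule on IVF-8c and SCNT-8c alone, and 93 of the named mRNAs were in a functional list at the floor of 100 FPKM. The share of mRNA FPKM held by the members is given from IVF-2c over IVF-8c to SCNT-8c. It was 34.7%, 37.6% and 39.3% without the most abundant row of each library, which was not the same row in IVF-2c. It was 31.6%, 30.4% and 32% among rows under 10000 FPKM and 28.2%, 38.4% and 40.3% of predicted mRNAs. Without the 10 most abundant members it was 14.1%, 18% and 19.2%, a setting chosen after seeing the data. Median-ratio scaling gave 72 members over 1.5-fold above and 2 below IVF-2c for IVF-8c, 71 above and 4 below it for SCNT-8c, and median log2 ratios of 0.37, 0.36 and, for IVF-8c over SCNT-8c, 0.01. Scaling to a sum of 1000000 FPKM gave 62 and 2, 74 and 1, medians of 0.29, 0.38 and -0.09, and 7 members with IVF-8c over 1.5-fold above SCNT-8c. The excess of members above IVF-2c over those below it thus depended on the scaling. The other 32 values of this kind stayed within 1.5 times the main count or within the limit set for a change. No paired analysis was possible because each embryo condition had 1 library. No replicate could be left out for the same reason. Matching by symbols alone, and the planned results on encoded proteins and promoters, were not run. A check of transcript length was void, since 64.3% of the members had a symbol, under the 80% set for it. The depth is unknown, so how far counting error widens the ratios near the floor is not known.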

Other observations

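Curated mRNAs (accessions starting with NM_) were outside the selection, and 9 of 275 met the same thresholds. TMSB4X, which encodes the actin-binding peptide thymosin beta 4, stood at 126723 FPKM in 2-cell embryos and 176956 and 172493 FPKM in IVF and SCNT 8-cell embryos, above the most abundant of the 213 predicted mRNAs in each library. SOD1, the cytosolic superoxide dismutase, had 2696, 1550 and 1591 FPKM, and SERF2 had 1647, 1615 and 1493 FPKM. CD81, a membrane protein of the egg surface, was at the floor but over the fold limit, with 15646 FPKM in the 2-cell library against 1969 FPKM in the IVF library and 4699 FPKM in the SCNT library at 8 cells. RPSA had an accession of each kind, and the curated one stood at 579.1, 730.5 and 911.7 FPKM, with SCNT-8c as its highest library where the predicted one had IVF-8c.

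With the FPKM summed per gene, 145 genes met the thresholds, and 16 of them had no predicted mRNA in the set. STXBP3 was one, with sums of 322.5, 322.6 and 320.1 FPKM over 2 accessions. MSMO1, an enzyme of cholesterol synthesis, reached 303.0, 436.0 and 463.9 FPKM over 8 accessions. Of the 36240 lncRNAs of the same libraries, 18 were at 300 FPKM or more in each library and 11 met the thresholds, among them TCONS_00127784 with 333.5, 352.4 and 353.7 FPKM.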
